A study of Mus musculus with 4 samples.

Results

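Genes for making, storing and releasing catecholamines and for building neurites were measured in 4 subcutaneous tumours of the mouse neuroblastoma line 9464D-GD2. The set holds 38 genes chosen by name, for catecholamine synthesis and transport, secretory granules, neurites and neural receptors, and all 38 were found among the 43432 genes of the count table. Of these, 12 were measurable at a level that could be tested and 21 had at most 3 counts in every library. Between tumours given small extracellular vesicles (sEVs) with the antibody and tumours given the antibody alone, 0 of the 12 differed past the test's threshold.

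The tumours grew in female C57BL/6 mice, an immunocompetent strain. In 2 mice dinutuximab (25 µg), an antibody against the ganglioside GD2, was dosed together with sEVs (20 µg) made by 9464D-GD2 cells, and in 2 mice dinutuximab (25 µg) was dosed alone. Dosing was 2 times a week for 5 treatments, so every mouse had received the antibody and no tumour was untreated. Per the labels the tumours of each group carry the numbers 3 and 4, and in the series design they are described as biological replicates. The mice's ages are not given in the labels. The parent line 9464D comes from a tumour of a transgenic mouse in which the rat tyrosine hydroxylase promoter drives human MYCN, so all groups share this oncogene. It is 1 cell line, and each library also holds RNA of host cells.

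Noradrenaline is made from tyrosine in steps, by tyrosine hydroxylase (Th), aromatic amino acid decarboxylase (Ddc) and dopamine beta-hydroxylase (Dbh), and is packed into vesicles by the monoamine transporters Slc18a1 and Slc18a2. Sympathetic neurons and adrenal chromaffin cells store it in dense-core granules together with chromogranins and secretogranins. Neuroblastoma arises from the precursors of these cells, and loss of the catecholamine and neurite genes is a known mark of poorly differentiated tumours.

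The sEV libraries held 26164711 and 28187573 counts and the dinutuximab libraries 26312447 and 24452699. One library stood apart: sEV replicate 3 scored -35.2 on the leading principal component (42.4% of the variance), where the scores of the others were 5.96 to 16.3. A count of 3 in a library equals between 0.104 and 0.123 CPM (counts scaled to TMM-adjusted library size), and this was taken as the floor of detection. Such limits cover counting error only. Levels of different genes are compared below in TPM, which also divides counts by exon length. The median over the 13823 genes that passed the low-count filter was 14.2 TPM. Among all 21551 protein-coding genes in the table, 36.3% had at most 3 counts in every library, against 55.3% of the 38 genes, and 27.0% had no count at all, against 23.7% of the 38.

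**Figure D1:**
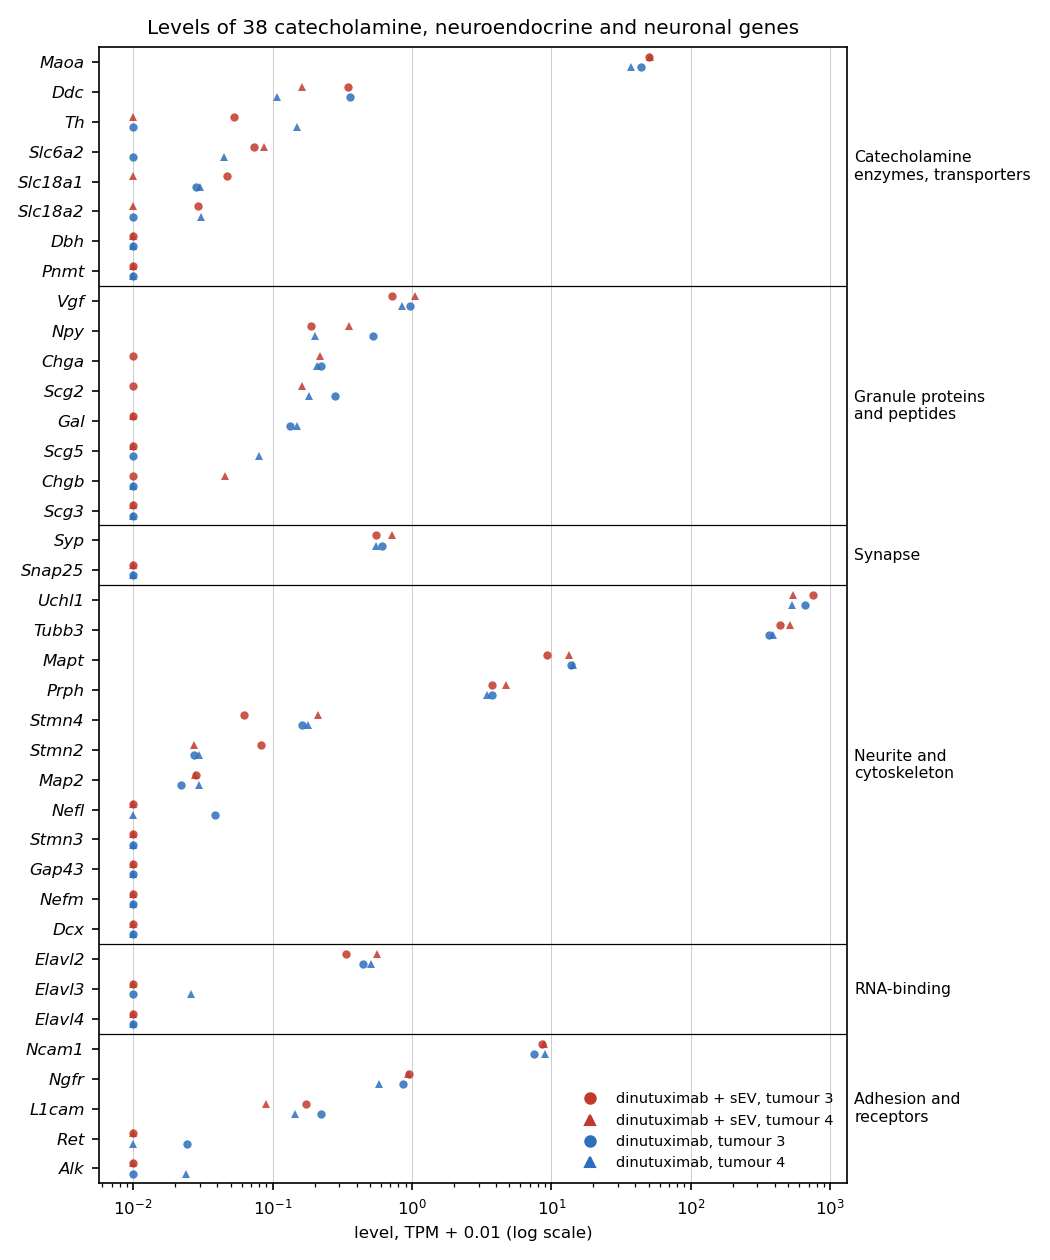
Level of each of the 38 genes in TPM plus 0.01 on a log axis, with 1 point per tumour (sEV group in red above, dinutuximab group in blue below) and genes ordered by level within their role. Uchl1, Tubb3, Maoa, Mapt and Ncam1 stand above 5 TPM, and points at 0.01 are genes with no count in that library.

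Of the enzymes that turn tyrosine into noradrenaline and adrenaline, Th, Dbh and Pnmt were lacking. Th, the rate-limiting enzyme, had 1 and 0 counts in sEV tumours, against 0 and 3 in dinutuximab tumours. Dbh, and Pnmt, which methylates noradrenaline to adrenaline, had 0 counts in all 4 libraries, which allows at most 0.122 TPM for Dbh and 0.284 TPM for Pnmt. Th (ENSMUSG00000000214) lies on the minus strand of chromosome 7 at 142892752 to 142931128 and Dbh (ENSMUSG00000000889) on the plus strand of chromosome 2 at 27165233 to 27183200, on GRCm38. The decarboxylase Ddc, which also serves serotonin synthesis, was the step still measurable, with 15 and 7 counts in sEV tumours and 16 and 4 in dinutuximab tumours. Its mean of 0.235 TPM lay at the 1.5th percentile of the genes tested, and both tumours numbered 3 were above both tumours numbered 4.

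The transporters of the pathway were absent or nearly so. The vesicle transporter Slc18a1 had 2 and 0 counts in sEV tumours and 1 and 1 in dinutuximab tumours, and Slc18a2 had 1 and 0 against 0 and 1. The noradrenaline reuptake transporter Slc6a2, by which neuroblastoma takes up radiolabelled MIBG, had 4 and 5 counts in sEV tumours and 0 and 2 in dinutuximab tumours. These counts separate the groups, as 34.6% of all tested genes do, but lie so near the floor that the gene was not tested. Catecholamine breakdown was the exception. Maoa (ENSMUSG00000025037, plus strand of chromosome X at 16619698 to 16687818), a monoamine oxidase of the outer mitochondrial membrane, averaged 45.3 TPM (76.2nd percentile), and its relative Maob had 7 counts over all libraries.

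Short stretches of promoter are shown for genes of the lacking and the retained groups to show where the cyclic AMP response element, a known site of control in catecholamine and granule genes, stands in them. Capitals mark the element TGACGTCA in the 150 bases before the start (5′ to 3′ on the gene's strand, RefSeq, GRCm38.p6), for Th (chr7:142899996-142900145, minus strand), Chgb (chr2:132781492-132781641, plus), Scg2 (chr1:79440027-79440176, minus), Tubb3 (chr8:123411403-123411552, plus) and Uchl1 (chr5:66675971-66676120, plus).
Th: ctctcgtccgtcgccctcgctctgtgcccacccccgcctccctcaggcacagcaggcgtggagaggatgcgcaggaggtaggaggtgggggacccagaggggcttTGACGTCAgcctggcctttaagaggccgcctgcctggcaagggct
Chgb: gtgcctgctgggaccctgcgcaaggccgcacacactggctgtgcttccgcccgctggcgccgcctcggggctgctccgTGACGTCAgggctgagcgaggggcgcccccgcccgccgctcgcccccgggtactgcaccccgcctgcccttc
Scg2: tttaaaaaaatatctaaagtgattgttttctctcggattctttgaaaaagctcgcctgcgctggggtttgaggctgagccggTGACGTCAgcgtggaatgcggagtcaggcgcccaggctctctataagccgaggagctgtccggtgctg
Tubb3: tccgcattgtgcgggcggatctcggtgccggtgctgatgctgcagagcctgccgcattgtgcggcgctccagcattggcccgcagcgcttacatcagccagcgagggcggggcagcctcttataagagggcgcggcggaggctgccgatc
Uchl1: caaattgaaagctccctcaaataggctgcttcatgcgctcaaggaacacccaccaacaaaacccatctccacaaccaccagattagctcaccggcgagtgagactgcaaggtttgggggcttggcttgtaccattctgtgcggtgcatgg
The full window of 250 bases before to 50 after the start was found in RefSeq for 25 of the 38 genes. TGACGTCA, which reads the same on both strands, stood in the windows of Th, Chgb and Slc18a2, 3 of 14 genes with at most 3 counts, and of Scg2, 1 of 2 genes of intermediate counts. It stood in 0 of the 9 genes that could be tested and in 2.03% of all 27025 genes in the promoter table. CACGTG, the E-box bound by MYC proteins, was found in 0 of the 25 genes on either strand, against 8.09% of all genes. TTCAGCACC, the left part of the element bound by the repressor REST, was found in 1 gene (Scg2), against 0.43% of all genes, and TATAAA in 5 genes, against 15.67%. Only exact matches were counted, so a variant of an element that differs in any base was missed. The matches describe letters in the windows and were not tested.

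Of the 8 granule proteins and peptides 5 had at most 3 counts in every library, Chga and Scg2 had a few more, and Vgf alone could be tested. Scg3, a granule protein that binds chromogranin A, had 0 counts in all 4 libraries, and Scg5, the chaperone of prohormone convertase 2, had 0 and 0 counts in sEV tumours and 0 and 1 in dinutuximab tumours. Chgb, encoding chromogranin B, had 0 and 1 counts in sEV tumours and 0 and 0 in dinutuximab tumours. The peptide precursors followed the same course, with 1 and 2 counts of Npy in sEV tumours against 3 and 1, and 0 and 0 counts of Gal against 1 and 1. Chga, encoding chromogranin A, a serum marker of neuroendocrine tumours, had 0 and 6 counts in sEV tumours and 6 and 5 in dinutuximab tumours. Scg2, encoding secretogranin II, had 0 and 4 counts in sEV tumours, against 7 and 4. In both genes sEV replicate 3 held no count, and the other 3 libraries between 4 and 7. Vgf, a neurotrophin-induced granule protein, had 0.802 and 1.11 CPM in sEV tumours and 1.13 and 0.942 CPM in dinutuximab tumours. Its groups overlapped, and its mean of 0.888 TPM lay at the 8.8th percentile.

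The pair of synaptic genes was split. Snap25, a core protein of vesicle fusion, had 0 counts in all 4 libraries, or at most 0.0482 TPM. Syp, encoding the vesicle protein synaptophysin, had 1.07 and 1.32 CPM in sEV tumours and 1.25 and 1.06 CPM in dinutuximab tumours. It was measurable in all 4 at 0.598 TPM, with overlapping groups, and 16.8% of its exon bases are shared with the antisense gene Gm14703.

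Neurite and cytoskeleton genes held both the highest and the lowest levels of the set. Uchl1 (protein gene product 9.5, a neuronal deubiquitinase) averaged 620 TPM, at the 98.6th percentile of tested genes, and Tubb3 (neuronal class III beta-tubulin) 425 TPM, at the 97.8th. Between 81.5% and 84.5% of all counts of the 38 genes in a library came from these 2 genes. Uchl1 was above Tubb3 in TPM in each of the 4 tumours. Uchl1 (ENSMUSG00000029223) lies on the plus strand of chromosome 5 at 66676091 to 66687234 and Tubb3 (ENSMUSG00000062380) on the plus strand of chromosome 8 at 123411424 to 123422015. Mapt (ENSMUSG00000018411, plus strand of chromosome 11 at 104231390 to 104332090), which encodes the microtubule protein tau, averaged 12.7 TPM, close to the middle of tested genes (47.5th percentile). Prph, encoding peripherin, the intermediate filament of peripheral neurons, averaged 3.91 TPM (25.0th percentile), with 2.83 and 3.40 CPM in sEV tumours and 2.96 and 2.58 CPM in dinutuximab tumours.

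In contrast, Gap43 (growth cone protein), Dcx (doublecortin, of migrating neurons), Nefm (medium neurofilament) and Stmn3 (a neuronal stathmin) had 0 counts in all 4 libraries. For these 4 genes the count of 0 allows at most 0.215, 0.0259, 0.0566 and 0.288 TPM. Nefl, the light neurofilament, had 0 and 0 counts in sEV tumours and 1 and 0 in dinutuximab tumours (the intermediate filament gene Prph was kept). Map2, the dendritic microtubule protein, had 3 and 3 counts in sEV tumours and 2 and 3 in dinutuximab tumours, over a long exon length of 16449 bases. Stmn2 had 4 and 1 counts against 1 and 1, and Stmn4 1 and 4 against 3 and 3. Their relative Stmn1, which is found in dividing cells of many kinds, averaged 255 TPM. Exons of Nefl and Nefm overlap each other on opposite strands, over 32.8% and 19.2% of their bases.

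Of the neuronal RNA-binding proteins of the Hu family, which stabilise AU-rich messages, Elavl4 (HuD) had 0 counts in all 4 libraries and Elavl3 (HuC) 0 and 0 in sEV tumours against 0 and 1. Elavl2 (HuB) was measurable, at 1.03 and 1.63 CPM in sEV tumours and 1.44 and 1.56 CPM in dinutuximab tumours. The ubiquitous family member Elavl1 (HuR) averaged 30.3 TPM, where Elavl2 averaged 0.452 TPM.

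Among surface proteins, the neural cell adhesion molecule Ncam1 averaged 8.43 TPM (38.4th percentile). The neurotrophin receptor Ngfr (p75) averaged 0.821 TPM and the adhesion molecule L1cam 0.148 TPM, the lowest of the 12 tested. Ngfr had 1.22 and 1.14 CPM in sEV tumours and 1.17 and 0.737 CPM in dinutuximab tumours, the last being the lowest of the 4. L1cam had 12 and 6 counts in sEV tumours and 16 and 9 in dinutuximab tumours. The receptor tyrosine kinase genes Alk, a neuroblastoma oncogene, and Ret, a receptor for ligands of the GDNF family, were lacking. Alk had 0 and 0 counts in sEV tumours and 0 and 1 in dinutuximab tumours, and Ret 0 and 0 against 1 and 0. Ncam1, Ngfr, L1cam and Gap43 are also genes of Schwann cells, and of 19 genes listed for those cells 10 were tested. The glial factors Sox10, with 0 and 0 counts in sEV tumours and 1 and 3 in dinutuximab tumours, and Foxd3, with 0 in all 4, were at or near 0. The whole list summed to 165 and 166 CPM in sEV tumours and 154 and 163 CPM in dinutuximab tumours, and the part of these cells in the levels was not tested.

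With sEVs 0 of the 12 tested genes were higher and 0 lower in edgeR's quasi-likelihood test, and the smallest p after Benjamini-Hochberg adjustment over all genes was 0.885. Over all 13823 genes tested the share called was 0%. At an unadjusted p under 0.05, 1 of the 12 (Mapt) passed, where 5.57% of all genes did. DESeq2 also called 0 of the 12, with 0.45% called of the 12215 genes to which it gave an adjusted p. It gave none to Ddc, Vgf and L1cam, so these could not be called by it. In another fit genes below the filter entered the edgeR test. Those of the 38 had at most 7 counts in a library, too few to read anything from a lack of calls. Of the 38 genes 29 had a count and 0 of them were called, against 1.19% of all genes. The same count of 0 was found with the replicate number as a block (0.485% of all genes called), without sEV replicate 3 (0.93%) and without sEV replicate 4 (2.23%). The groups did not overlap in 3 of the 12, Maoa, Tubb3 and Mapt, against 34.6% of all genes. The log2 fold changes (sEV over dinutuximab) were positive in 8 of the 12, against 50.3% of all genes, with a median of 0.032 over the 12 and of 0.001 over all. With 2 tumours a group, no exact two-sided permutation test of 1 gene can go below p = 0.333.

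**Figure D2:**
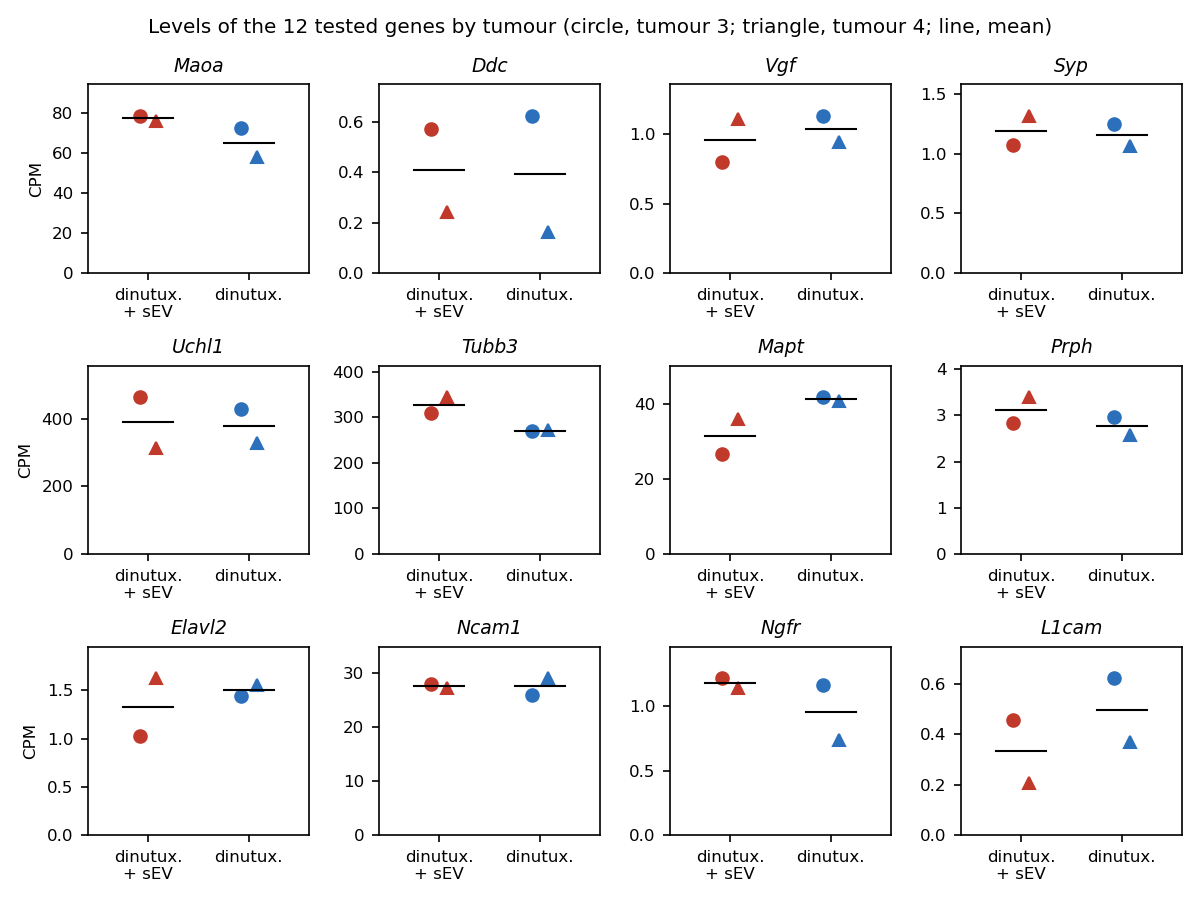
Level in CPM (vertical axes, starting at 0) of the 12 tested genes in each tumour, sEV group at left in red and dinutuximab group at right in blue, with group means as lines. The groups do not overlap in Maoa, Tubb3 and Mapt, and in Uchl1 and Ddc both tumours numbered 3 lie above both tumours numbered 4.

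Tubb3 had 308 and 345 CPM in sEV tumours, against 269 and 271 CPM in dinutuximab tumours. Both sEV tumours were above both others. Tubb3 averaged 327 ± 25.7 CPM in sEV tumours and 270 ± 1.35 CPM in dinutuximab tumours (SD, n = 2 each), a log2 fold change of 0.27 ± 0.13 (SE) with a 95% interval from -0.017 to 0.57 (edgeR adjusted p = 0.886). Maoa had 78.5 and 76.2 CPM in sEV tumours and 72.4 and 57.7 CPM in dinutuximab tumours. The gap between the groups was smaller than that between the dinutuximab tumours, and the log2 fold change was 0.25 ± 0.15 (SE), with an interval from -0.089 to 0.59 (edgeR adjusted p = 0.908). Mapt went the other way, with 26.7 and 35.9 CPM in sEV tumours and 41.8 and 40.6 CPM in dinutuximab tumours. Its log2 fold change was -0.40 ± 0.17 (SE), with an interval from -0.79 to -0.0058 (unadjusted p = 0.0474 and adjusted p = 0.885 by edgeR). The lowest of its 4 values was in sEV replicate 3, the library that stood apart, and without it the log2 fold change was -0.21.

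For Uchl1 the difference between the tumour numbers was wider than that between the groups. It had 464 and 314 CPM in sEV tumours and 430 and 327 CPM in dinutuximab tumours. Uchl1 averaged 389 ± 106 CPM in sEV tumours and 378 ± 72.5 CPM in dinutuximab tumours (SD, n = 2 each), with a log2 fold change of 0.040 and an interval from -0.43 to 0.51. Its sign turned negative without sEV replicate 3 (-0.277) and without dinutuximab replicate 4 (-0.144). Of its exon bases 18.1% are shared with the antisense gene Uchl1os, and the strand setting of the counting is not given in the sources used here. Ncam1 was the steadiest of the set, with 27.9 and 27.2 CPM in sEV tumours and 25.9 and 29.0 CPM in dinutuximab tumours. Its interval from -0.33 to 0.34 leaves room for differences of up to 1.27-fold in either direction.

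The 7 genes of lower level had wide intervals. The log2 fold change was 0.31 for Ngfr (interval -0.62 to 1.23), 0.17 for Prph (-0.51 to 0.84), 0.047 for Syp (-0.81 to 0.91) and -0.11 for Vgf (-1.03 to 0.80). For Elavl2 it was -0.17 (-1.04 to 0.70), for L1cam -0.59 (-1.94 to 0.76) and for Ddc 0.024 (-1.62 to 1.67). Changes of 2-fold lie within the interval for Ngfr, Vgf, Elavl2, L1cam and Ddc. The intervals are not adjusted for the number of genes tested, so they give no limit of detection for the adjusted test.

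**Figure D3:**
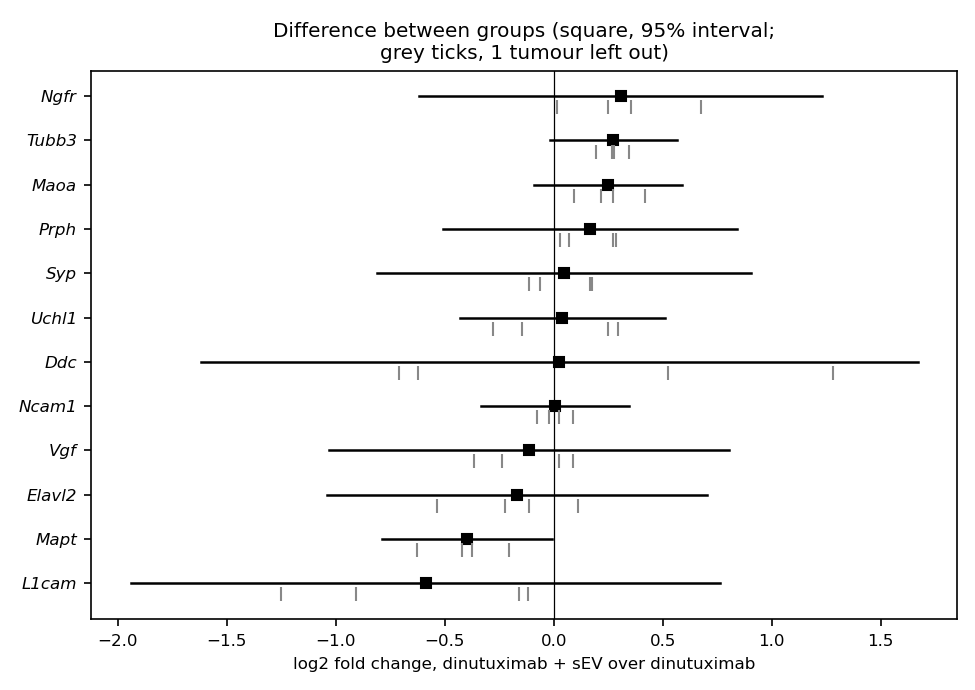
Log2 fold change (sEV over dinutuximab, horizontal axis) of the 12 tested genes with 95% intervals from the edgeR fit, and grey ticks for the value with 1 tumour left out. All intervals but that of Mapt include 0, and the ticks of Ddc run from -0.709 to 1.28.

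Marker genes of host cells were read in the same libraries, and in bulk tissue a change in cell number cannot be told apart from a change in RNA per cell. The 9 macrophage markers, all tested, summed to 3039 and 2980 CPM in sEV tumours and 2321 and 2645 CPM in dinutuximab tumours. The 9 fibroblast markers summed to 899 and 749 CPM, against 644 and 639 CPM, and 8 endothelial markers to 113 and 105 CPM, against 135 and 153 CPM. The 8 pericyte and smooth muscle markers, of which Cnn1 was at 0, summed to 40.3 and 22.3 CPM, against 74.7 and 55.2 CPM. Like Tubb3 and Maoa, the macrophage and fibroblast sums were higher in both sEV tumours, although 6 of the 9 fibroblast markers had negative fold changes. Like Mapt, the endothelial and smooth muscle sums were lower in both, with negative fold changes in all 8 and in all 7 tested markers. Of 13 immediate early and heat shock genes, 12 had negative fold changes, and their sum was 615 and 691 CPM in sEV tumours and 851 and 790 CPM in dinutuximab tumours. The share of counts on 6 genes known to gather ribosomal RNA reads was 4.76% and 4.06% in sEV tumours and 5.70% and 5.95% in dinutuximab tumours. The 5 red blood cell markers summed to 70.0 and 42.3 CPM in sEV tumours and 35.0 and 21.2 CPM in dinutuximab tumours, with positive fold changes in all 5 (median log2 fold change 1.07, each at an unadjusted p under 0.05). The 8 skeletal muscle markers summed to 11.1 and 6.1 CPM in sEV tumours and 14.7 and 18.7 CPM in dinutuximab tumours, with negative fold changes in all 7 tested (median -0.76). The 7 T and NK cell markers summed to 1.87 and 7.87 CPM in sEV tumours and 2.42 and 4.91 CPM in dinutuximab tumours. Of 6 melanocyte and 6 adrenal cortex markers, 4 each had at most 3 counts in every library, among them the pigment enzyme Tyr and the steroid enzyme Cyp11b1, each at 0. The part of these differences in the values of the 12 genes was not tested.

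The label of neuroblastoma was set against the transcription factors of sympathoadrenal cells. Hand2 averaged 179 TPM, Mycn 120 TPM, Sox4 74.2 TPM, Gata2 24.7 TPM and Isl1 12.2 TPM. By contrast, Hand1 and Tfap2b had 0 counts in all 4 libraries, and Phox2a had 1 and 2 counts in sEV tumours and 3 and 1 in dinutuximab tumours. Gata3, a factor of noradrenergic cells, averaged 1.29 TPM. Reads of the human MYCN transgene that match mouse Mycn cannot be told apart from it here, and antisense genes share 19.6% of the exon bases of Hand2 and 54.6% of those of Sox4. Of the 17 factors listed, 8 were tested and 0 passed in either direction by edgeR. Hand2 had 164 and 172 CPM in sEV tumours and 154 and 145 CPM in dinutuximab tumours (log2 fold change 0.17 ± 0.13, SE), and Isl1 18.1 and 21.4 CPM against 15.7 and 17.6 CPM (0.24 ± 0.17). Gata3 had 1.76 and 1.28 CPM, against 2.57 and 2.17 CPM (-0.64 ± 0.34).

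Repressors of neuronal genes were all present. Rest, which silences neuronal genes in other tissues, averaged 15.03 TPM (51.2nd percentile), its partners Rcor1 and Rcor2 15.7 and 62.2 TPM, and Ptbp1, a splicing repressor of neuronal exons, 265 TPM. The 7 listed genes were all tested and 0 passed, with negative fold changes in all 7 (median -0.18). Rest had 37.6 and 36.7 CPM in sEV tumours and 45.5 and 44.4 CPM in dinutuximab tumours. Both sEV tumours were below both others, and the log2 fold change was -0.28 ± 0.13 (SE, edgeR adjusted p = 0.887).

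**Figure D4:**
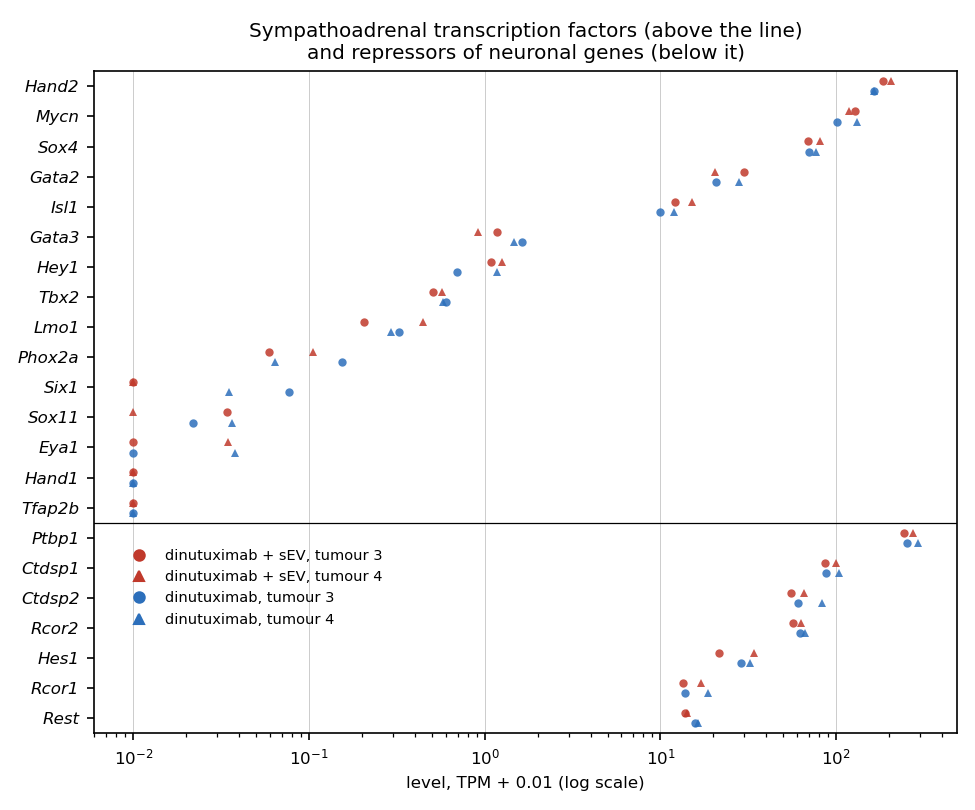
Level in TPM plus 0.01 (log axis) of 15 sympathoadrenal transcription factors above the line and 7 repressors of neuronal genes below it, 1 point per tumour, sEV group in red and dinutuximab group in blue. Hand2, Mycn, Sox4, Gata2, Isl1 and all 7 repressors lie near or above 10 TPM, while Hand1 and Tfap2b lie at 0.

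The neighbours of the 38 genes in each pathway were also partly kept. Of 23 other genes of catecholamine metabolism 11 were tested, and 0 passed in either direction by edgeR. The median log2 fold change of the tested genes was 0.145 in this list, 0.061 in that of granule genes, -0.145 for synaptic vesicles, -0.098 for neurites, -0.365 for RNA-binding proteins, 0.225 for adhesion and -0.157 for neurotrophic genes, against 0.001 over all genes. At an unadjusted p under 0.05, 9 of the 72 tested genes of these 7 lists passed (12.5%), 2 higher and 7 lower with sEVs, where 5.57% of all genes did (341 higher and 429 lower). The lists were chosen with earlier results of these data known, so the 2 shares are not an independent comparison. The enzymes that make and recycle tetrahydrobiopterin, the cofactor of Th, were kept although Th was not, with Qdpr at 94.5 TPM, Spr at 53.5 TPM and Gch1 at 23.7 TPM. Gch1, the first enzyme of cofactor synthesis, had 51.1 and 34.3 CPM in sEV tumours and 77.2 and 62.9 CPM in dinutuximab tumours. Both sEV tumours were below both others, with a log2 fold change of -0.71 ± 0.20 (SE, edgeR adjusted p = 0.654). Leaving out sEV replicate 3 gave -1.04, which passed (edgeR adjusted p = 0.0012, range over all alternatives 0.0012 to 0.854), in a fit where 0.93% of all genes were called.

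Of 24 other granule genes 17 had at most 3 counts in every library, among them the prohormone convertases Pcsk1, with 1 count in all, and Pcsk2, with none. The later processing enzymes remained, with Cpe (carboxypeptidase E) at 311 TPM and Pam, which amidates peptides, at 48.4 TPM. Ptprn, which encodes the granule membrane protein IA-2, averaged 49.1 TPM where the chromogranins were near 0. It had 60.9 and 71.0 CPM in sEV tumours and 84.6 and 98.7 CPM in dinutuximab tumours. The log2 fold change was -0.47 ± 0.15 (SE, edgeR adjusted p = 0.713), and 0 of the 6 tested genes of this list passed.

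Synaptic vesicle and cytoskeleton genes of broad use were kept. Of 23 other synaptic vesicle genes 12 were tested and 0 passed, among them Vamp2 (25.7 TPM), which acts in vesicle fusion in many cells. Syngr3, a synaptic vesicle protein, had 2.71 and 4.33 CPM in sEV tumours and 5.53 and 7.002 CPM in dinutuximab tumours (log2 fold change -0.83 ± 0.30, SE). Of 31 other neurite genes 22 were tested and 0 passed, led by the alpha-tubulin gene Tuba1a at 1263 TPM. Nes, encoding nestin, an intermediate filament of neural precursors and of new vessels, had 2.41 and 3.05 CPM in sEV tumours and 6.63 and 8.56 CPM in dinutuximab tumours. Nestin was the gene of lowest p in this list, with a log2 fold change of -1.47 ± 0.27 (SE, edgeR adjusted p = 0.404 and DESeq2 adjusted p = 0.0152). Over all alternatives, chosen for this gene after its values were seen, the adjusted p lay between 1.3e-04 (edgeR without the low-count filter) and 0.854. Dpysl3, which steers growth cones, had 1.49 and 1.46 CPM against 4.33 and 3.15 CPM (-1.34 ± 0.32, SE). Endothelial and smooth muscle markers were lower in the same sEV tumours, as given above, and their part in the values of Nes and Dpysl3 was not tested.

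Of 14 other neuronal RNA-binding genes 6 were tested and 0 passed, and Rbfox1, Srrm3 and the neuronal nuclear antigen Rbfox3 (at most 6 counts in a library) were not among them. Of 19 other neural adhesion genes 5 were tested and 0 passed, with Cdh2 (N-cadherin) at 27.2 TPM. Cd24a, a small surface glycoprotein, had 2.10 and 1.77 CPM in sEV tumours and 0.624 and 0.942 CPM in dinutuximab tumours (log2 fold change 1.30 ± 0.39, SE, edgeR adjusted p = 0.699).

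Of 23 other genes of neurotrophic factors and receptors 10 were tested and 0 passed with all 4 tumours. The ligands pleiotrophin (Ptn, 78.0 TPM) and Gdnf (4.22 TPM) were present, while Alkal1 and Alkal2, the ligands of Alk, had 0 counts in all 4 libraries. Gfra1, the co-receptor by which Gdnf reaches Ret, averaged 17.6 TPM where Ret was lacking. It had 10.9 and 40.3 CPM in sEV tumours and 46.5 and 48.1 CPM in dinutuximab tumours, and the low value was that of sEV replicate 3 alone. Its log2 fold change was -0.88 ± 0.46 (SE, edgeR adjusted p = 0.887), with -0.239 when that library was left out and -2.12 (edgeR adjusted p = 7.4e-15, range over all alternatives 7.4e-15 to 1.0) when sEV replicate 4 was.

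**Figure D5:**
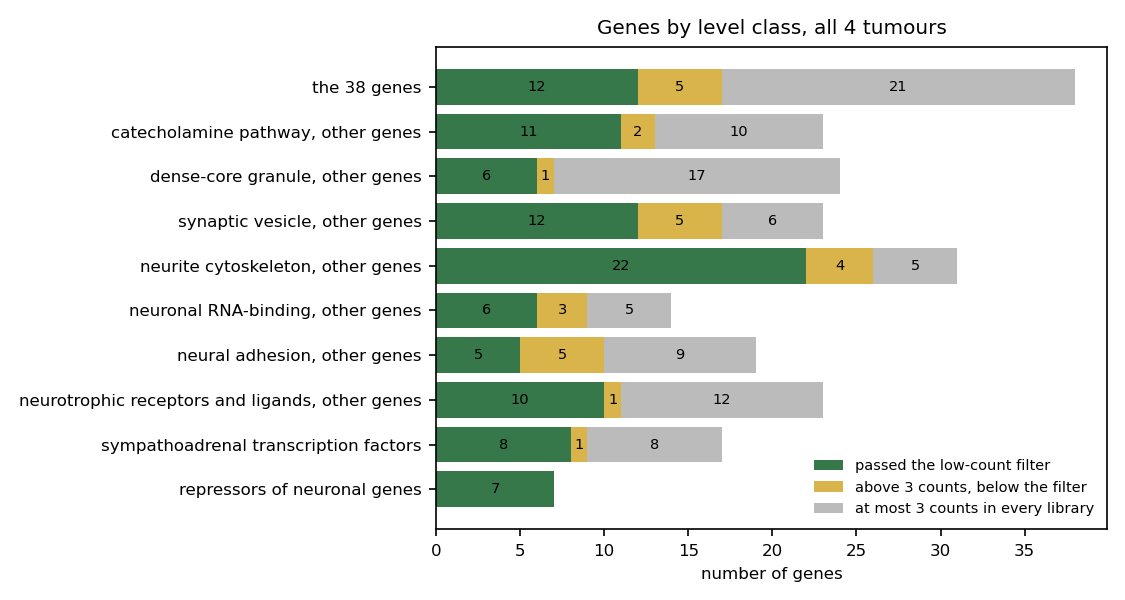
Number of genes (horizontal axis) that passed the low-count filter, that had more than 3 counts in some library but did not pass it, and that had at most 3 counts in every library, for the 38 genes and each pathway list over all 4 tumours. Of the 38 genes 12, 5 and 21 fall in these classes, and all 7 repressors passed.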

How the data were processed

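Bulk RNA-seq was made from flash-frozen tumours with a stranded mRNA kit, each library on 2 lanes, per the labels' protocols. The authors deposited whole-number counts per Ensembl gene. STAR, SAMtools, HTSeq and mm10 are named in the submitters' processing notes, and their versions, the annotation and the strand setting are not given in the sources used here. The series table and the per-sample tables held identical values (173728 of 173728).

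Symbols, coordinates and merged exon lengths for TPM came from GENCODE M21 (GRCm38), which named 42548 of the 43432 IDs. The 884 IDs without a name held at most 0.1% of counts. Groups follow the labels. Counts were scaled by TMM, filtered with filterByExpr and tested with edgeR's quasi-likelihood test (edgeR 4.0.16, R 4.3.3), Benjamini-Hochberg adjusted over all genes tested, at 0.05. Standard errors are the absolute log2 fold change divided by the square root of F, and 95% intervals use the model's degrees of freedom. The script was checked on simulated counts. Genes under the filter were divided at 3 counts in a library, the limit that a count of 0 allows. Totals of 24452699 to 28187573 counts set the depth.

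All 38 genes are described. Of each pathway list those highest in TPM and those lowest in p were named, with others chosen after their values were seen. The genes and lists were chosen with earlier results of these data known. Alternatives were DESeq2 1.42.0, limma-voom (limma 3.58.1), other scalings and filters, robust dispersion, the replicate number as a block, TPM by longest transcript, and each tumour left out. Those for 12 pathway genes were added after the values were seen. What the tumour numbers stand for is not given in the labels, so p-values measure the spread between these samples. Promoters were taken from RefSeq (GRCm38.p6) and searched on both strands. Some genes of the lists are not reported here.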

Additional observations from a re-analysis of the deposited data

How the results depend on the processing

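No gene of the 38 was called under any alternative, but only those tested could be. These were 12 with the default filter, 10 with a filter at 1 CPM and 29 without the low-count filter, as 9 had no count at all. With all 4 tumours the lowest adjusted p among the tested genes of the set was 0.39 (Mapt with the replicate number as a block, edgeR). DESeq2 gave no adjusted p to Ddc, Vgf and L1cam, and a filter at 1 CPM left out Ddc and L1cam, so these could not be called there. Over all genes, where 0 were called higher and 0 lower, DESeq2 called 17 higher and 38 lower, and edgeR without the low-count filter 107 and 155. With 1 tumour left out, the lone one being assumed to vary like the other group, edgeR called 0 to 160 higher and 0 to 156 lower. Calls came without sEV replicate 3 (48 and 84) and without sEV replicate 4 (160 and 156), and none without either dinutuximab tumour. With the replicate number as a block edgeR called 21 higher and 46 lower, but the numbers share no stated origin. Same-numbered tumours deviated together only weakly (r = 0.0659 across genes). Deviations were taken from group means of 2 tumours, so both pairs give this same value and count as 1. The median log2 fold change of the 12 tested genes was 0.032 and ran from -0.088 (without dinutuximab replicate 4) to 0.208 (without dinutuximab replicate 3). With a limit of 10 counts in place of 3, 0 genes fell in the intermediate class. The near-0 fold change of Ncam1 turned to -0.000487 by DESeq2, -0.000494 with RLE scaling and -0.00292 with a filter at 1 CPM. With 1 tumour left out the log2 fold change ran from -0.709 to 1.28 for Ddc, -0.367 to 0.0881 for Vgf, -0.277 to 0.295 for Uchl1, -0.536 to 0.112 for Elavl2, -0.0755 to 0.09 for Ncam1 and -0.112 to 0.178 for Syp. Without a turn of sign it ran from -1.25 (without sEV replicate 3) to -0.117 (without sEV replicate 4) for L1cam, 0.0154 (without dinutuximab replicate 4) to 0.678 (without dinutuximab replicate 3) for Ngfr, 0.029 (without sEV replicate 4) to 0.284 (without sEV replicate 3) for Prph and 0.0941 (without dinutuximab replicate 4) to 0.42 (without dinutuximab replicate 3) for Maoa. The causes were not tested. With 2 tumours a group, the unadjusted intervals left room for changes of 2-fold in 5 of the 6 tested genes under 1 TPM. The intervals give no limit of detection for the adjusted test. Nes, with a log2 fold change of -1.47, did not pass that test with all 4 tumours (edgeR adjusted p = 0.404).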
